A study of Mus musculus with 8 samples.

Results

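Colony-stimulating factors and interleukins are secreted proteins by which cells of a tissue instruct immune cells. The 10 genes described here encode such factors: Csf1, Csf2, Csf3, Il34, Il33, Il15, Il1a, Il1b, Tslp and Tnf. They were taken by name from the 21878 genes of the deposited table, and all 10 were found there. RNA was sequenced from wild-type C57BL/6 mouse brain astrocytes isolated from newborn pups (postnatal day 0), in 4 libraries given a cocktail of IL-1α, TNFα and C1q and 4 libraries left untreated. The titles of all 4 cocktail libraries read C1q, while the treatment field of 3 of them has another digit, and the titles were followed. The cocktail serves to make astrocytes reactive, so that they carry the complement fragment C3d. The sources used here give neither dose nor duration of the treatment. Whether the 4 libraries of a group came from separate cultures is not stated, so a p-value here reflects library-to-library spread that may be technical.

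In the brain, CSF1 and IL-34 are the ligands of the receptor CSF1R, on which microglia depend for survival. CSF2 and CSF3 drive the production and activation of myeloid cells, and are kept low in healthy tissue. IL-1α, IL-1β and IL-33 belong to the IL-1 family and signal through receptors that share the accessory chain IL1RAP. TNF acts through the receptors TNFR1 and TNFR2, and IL-15 and TSLP act mainly on lymphocytes and dendritic cells. IL-1α and TNF are also proteins of the cocktail, but the values below count the cells' own transcripts.

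The library totals behind the FPKM, derived here from the ratios between the values, were 19195898 to 20640490 fragments. The astrocyte markers summed to 853 to 881 FPKM (fragments per kilobase of gene, relative to the library's total) in cocktail and 1075 to 1212 FPKM in untreated libraries. All 10 of them were tested, 2 higher and 8 lower. Among 17 microglial markers the sum was 23.1, 25.3, 56.2 and 77.0 FPKM in cocktail libraries 1 to 4, against 18.9 to 23.2 FPKM in untreated libraries. Of these 17 markers 5 of the 10 tested were called higher and 0 lower by limma at an adjusted p under 0.05. Over all 11845 genes of that fit 26.6% were called higher and 41.1% lower. In cocktail libraries 3 and 4 alike, 15 of the 17 markers lay above all untreated libraries, among them Aif1 at 1.19 and 2.06 FPKM (untreated 0 to 0.501 FPKM) and Cx3cr1 at 0.922 and 1.35 FPKM (untreated 0.232 to 0.504 FPKM). In libraries 1 and 2 alike 3 of the 17 did, namely Itgam, Cd68 and Fcer1g. These 3 lay above all untreated libraries in all 4 cocktail libraries, as did 19% of 17258 genes, so the count of 3 carries no weight. No share over all genes was taken for libraries 3 and 4 alone or for libraries 1 and 2 alone. The pair not among the 15, Tmem119 and P2ry12, was at 0.442 to 0.872 and 0.0801 to 0.151 FPKM in cocktail libraries, and at 0.398 to 0.923 and 0.0604 to 0.135 FPKM in untreated libraries. Of 5 fibroblast markers 3 were called higher and 2 lower, with Lum at 6.52 to 8.72 FPKM and Dcn at 6.15 to 11.9 FPKM in cocktail libraries, against 0.151 to 0.298 FPKM and 1.26 to 1.59 FPKM in untreated libraries. Lum entered the fit only through its cocktail libraries. Col1a1 and Col1a2 fell, to 32.23 to 37.49 FPKM and 27.85 to 40.36 FPKM in cocktail libraries, against 43.76 to 56.58 FPKM and 49.49 to 57.71 FPKM in untreated libraries. The part of these stromal markers in the values of the 10 genes was not tested. Markers of the oligodendrocyte lineage summed to 73.9 to 79.4 FPKM in cocktail and 138 to 147 FPKM in untreated libraries, nearly all of it Olig1. Markers of mural cells summed to 125 to 139 FPKM in cocktail and 560 to 630 FPKM in untreated libraries. Most of that sum was Acta2, at 106.7 to 118.5 FPKM in cocktail and 534.5 to 605.4 FPKM in untreated libraries. Pdgfrb was at 14.75 to 17.9 FPKM in cocktail and 19.86 to 20.78 FPKM in untreated libraries. Of 9 markers of lymphoid cells and granulocytes 8 averaged under 0.1 FPKM, and the exception, S100a8, was at 0.762 to 1.26 FPKM in cocktail and 0 to 0.133 FPKM in untreated libraries.

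Of the 10 genes, 9 rose with the cocktail and 0 fell in limma on log2(FPKM + 1) without a filter on low values, at an adjusted p under 0.05 over 17258 genes. Over all those genes 20.3% were called higher and 32.9% lower. Il15 was the gene that was not called. In the same 9 genes every cocktail library lay above every untreated one, as in 19% of all genes. The median log2 change of the 10 genes was 0.89, against -0.02 over all genes in that fit. In bulk RNA a change in the number of cells of a type and a change in RNA per cell cannot be told apart.

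A filter of at least 1 FPKM in at least 4 libraries left 4 of the 10 genes among 11845 tested, namely Csf1, Il34, Il33 and Csf2. All 4 were called higher, in a fit that called 26.6% of genes higher and 41.1% lower. Csf2 passed the filter only through its cocktail libraries, where it was high, so the count over these 4 carries no weight. Of all calls in that fit 39.3% were rises, and 49.9% after median-ratio rescaling of the libraries, which moved the median gene by less than 0.1 on the log2 scale. The statistics of Csf1, Il34 and Il33 below come from the filtered fit. Those of the other 7 genes come from the fit without a filter. Changes are in log2(FPKM + 1). That scale compresses the change of a gene near 0 FPKM, so the fold of mean FPKM or the ratio of recovered fragments is given beside it.

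**Figure D1:**
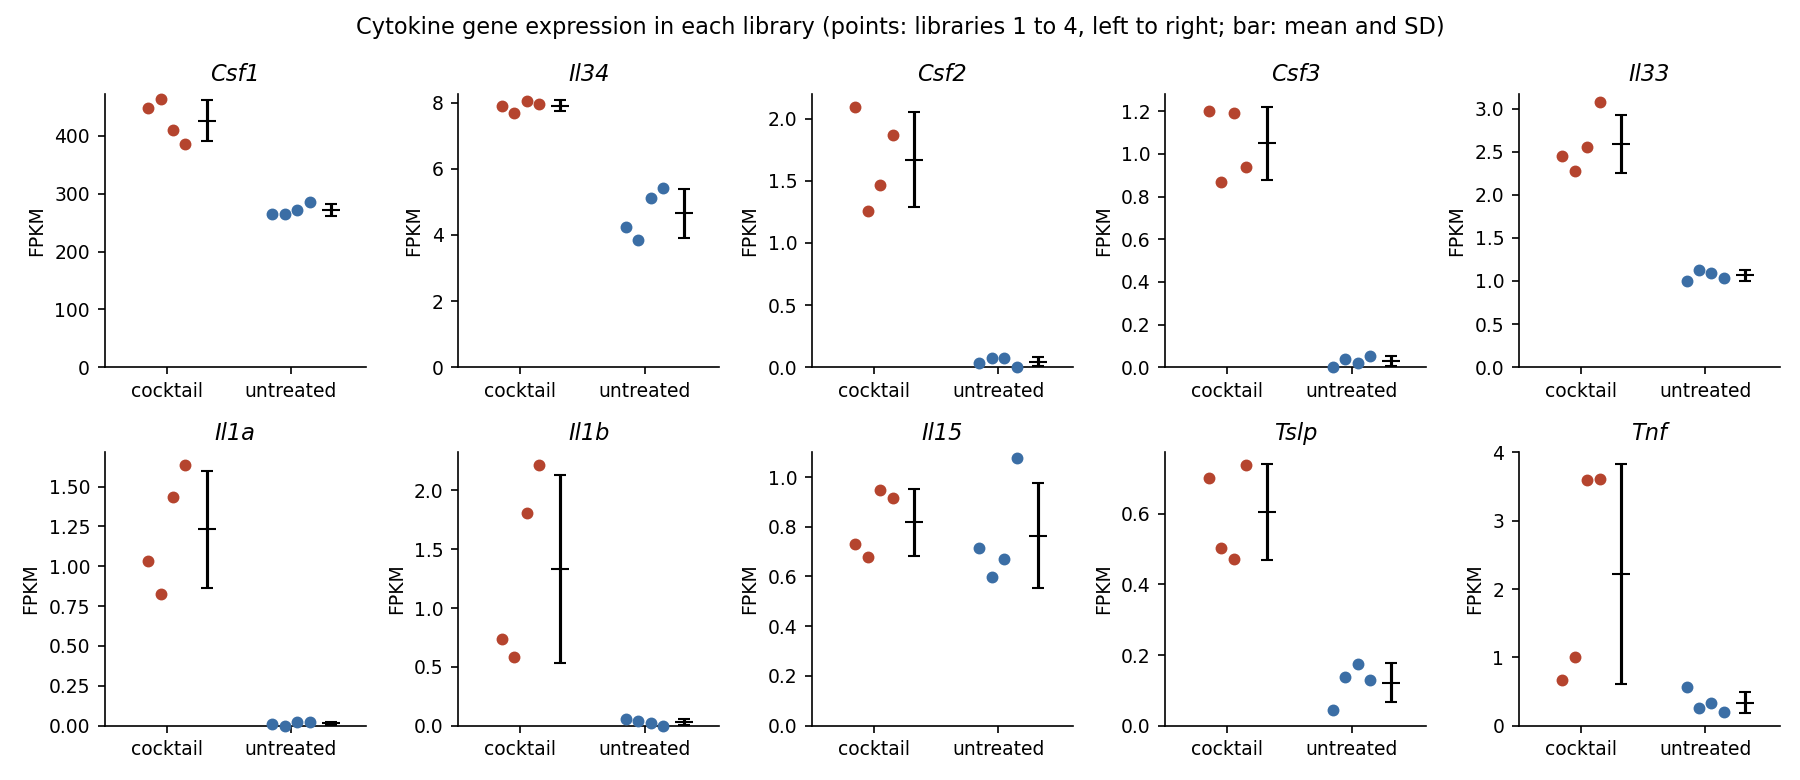
FPKM (vertical axes, each from 0) of the 10 genes in cocktail libraries (red, left) and untreated libraries (blue, right). Points are libraries 1 to 4 from left to right, and bars give the mean and SD of 4 libraries. The groups are separate in every panel except Il15, and Csf1 is the gene with the highest level, 426.7 FPKM on average in cocktail libraries.

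The genes differed in level over a range that the fold changes do not show. Per kilobase Csf1 stood above 99.7% of all genes in cocktail and 99.4% in untreated libraries, and it held 94.4% to 96.7% of the summed FPKM of the 10 genes in cocktail and 97.3% to 97.8% in untreated libraries. In cocktail libraries Il34 and Il33 followed, at means of 7.91 and 2.59 FPKM, and the range of Il33 lay inside that of Tnf. Tnf, Csf2, Il1b, Il1a, Csf3 and Il15 came next, at means between 2.22 and 0.817 FPKM, and each overlapped its neighbour in that order in the range over libraries. Tslp was last at a mean of 0.605 FPKM, and it also overlapped Il15. In untreated libraries the order was Csf1, Il34, Il33, Il15, Tnf and Tslp at 272, 4.65, 1.06, 0.764, 0.337 and 0.122 FPKM. There Il33 overlapped Il15 in range, and Tnf did not overlap Tslp or Il15. Csf2, Il1b, Csf3 and Il1a stood at 0.0456, 0.0291, 0.0273 and 0.0146 FPKM in untreated libraries and overlapped each other, and Tslp overlapped Csf2.

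Csf1 encodes macrophage colony-stimulating factor, the more widely expressed ligand of CSF1R. It had 448, 463, 410 and 386 FPKM in cocktail libraries 1 to 4, against 264, 266, 272 and 286 FPKM in untreated libraries. The groups were well apart, and cocktail libraries 3 and 4 were the lowest of their group. The fold of mean FPKM was 1.57, or 0.64 ± 0.053 as a log2 change (SE; limma, adjusted p = 4.3e-07). In absolute terms it gained 155 FPKM, the largest difference among the 10 genes. Csf1 lies on chromosome 3 from 107741048 to 107760469 of GRCm38, on the minus strand. RefSeq's promoter window of Csf1 holds the only match to the consensus of NF-kB, a transcription factor activated by IL-1 and TNF receptors, among the 6 genes with a window. The 200 bases before its start, at chr3:107760470-107760669 on the minus strand, are shown because of that match. It is in capitals and begins 154 bases before the start. The capitals fit the consensus when read on the strand opposite to the printed one.
Csf1: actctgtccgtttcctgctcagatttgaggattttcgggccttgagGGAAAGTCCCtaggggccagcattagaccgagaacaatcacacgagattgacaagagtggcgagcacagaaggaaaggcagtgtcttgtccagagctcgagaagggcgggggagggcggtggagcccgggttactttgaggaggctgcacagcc
On either strand the consensus was found in 5.14% of 27025 genes with windows of the same length, from 250 bases before to 50 after the start. A match is a description of the letters and not a site.

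Il34, the second ligand of CSF1R and in the brain known mainly from neurons, had 7.91, 7.69, 8.07 and 7.97 FPKM in cocktail libraries. Untreated libraries had 4.25, 3.84, 5.10 and 5.42 FPKM. The cocktail libraries were within 1.05-fold of each other, and the groups did not overlap. The fold was 1.70 and the log2 change 0.67 ± 0.078 (SE; limma, adjusted p = 1.1e-05). Csf1 exceeded Il34 in FPKM by 48.4- to 60.2-fold in cocktail and by 52.8- to 69.2-fold in untreated libraries, ranges that overlap.

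Their shared receptor gene Csf1r, which marks microglia and other macrophages, stood at 0.935, 1.15, 3.20 and 4.57 FPKM in cocktail libraries and at 1.17, 0.907, 0.936 and 0.596 FPKM in untreated libraries. Cocktail libraries 1 and 2 lay within the untreated range, and libraries 3 and 4 above it. The log2 change of Csf1r was 0.73 (limma, adjusted p = 0.037), a call that ended without the filter (adjusted p = 0.083) and without the variance trend (adjusted p = 0.053). Left out singly, cocktail libraries 3 and 4 and untreated libraries 2, 3 and 4 each ended that call (adjusted p = 0.11, 0.088, 0.065, 0.065 and 0.089). Without cocktail libraries 3 and 4 together the change was 0.11 (limma, adjusted p = 0.42). Ptprz1 and Sdc1, whose proteins also bind IL-34, fell to 32.1 ± 0.978 and 10.6 ± 0.468 FPKM in cocktail libraries, against 42.0 ± 2.97 and 12.6 ± 1.22 FPKM in untreated libraries (SD, n = 4; limma, adjusted p = 1.8e-05 and 0.0049).

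Csf2, granulocyte-macrophage colony-stimulating factor, was nearly absent from untreated libraries. It had 2.10, 1.26, 1.46 and 1.87 FPKM in cocktail libraries, against 0.0368, 0.0745, 0.0712 and 0 FPKM in untreated libraries. These values stand for 59, 34, 42 and 53 fragments in cocktail and 1, 2, 2 and 0 in untreated libraries. A count of 0 allows up to 3 fragments, or 0.104 to 0.112 FPKM for this gene. Its log2 change was 1.34 ± 0.091 (SE; limma without a filter, adjusted p = 1.9e-06). As a ratio of summed fragments per total it was 37.2-fold higher, with an exact 95% interval of 15.7 to 116 that covers counting error only.

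Csf3 encodes granulocyte colony-stimulating factor. Its 4 cocktail libraries had 1.20, 0.870, 1.19 and 0.936 FPKM and its untreated libraries 0, 0.0381, 0.0182 and 0.0531 FPKM. All cocktail libraries were far above all untreated ones, at 231 against 6 fragments in sum. For Csf3 the log2 change was 0.99 ± 0.056 (SE; limma, adjusted p = 5.5e-07) and the fragment ratio 38.1 with an interval of 17.2 to 105 for counting error only. Csf2 and Csf3 lie on chromosome 11, at 54247270 to 54249899 and at 98700183 to 98703631.

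**Figure D2:**
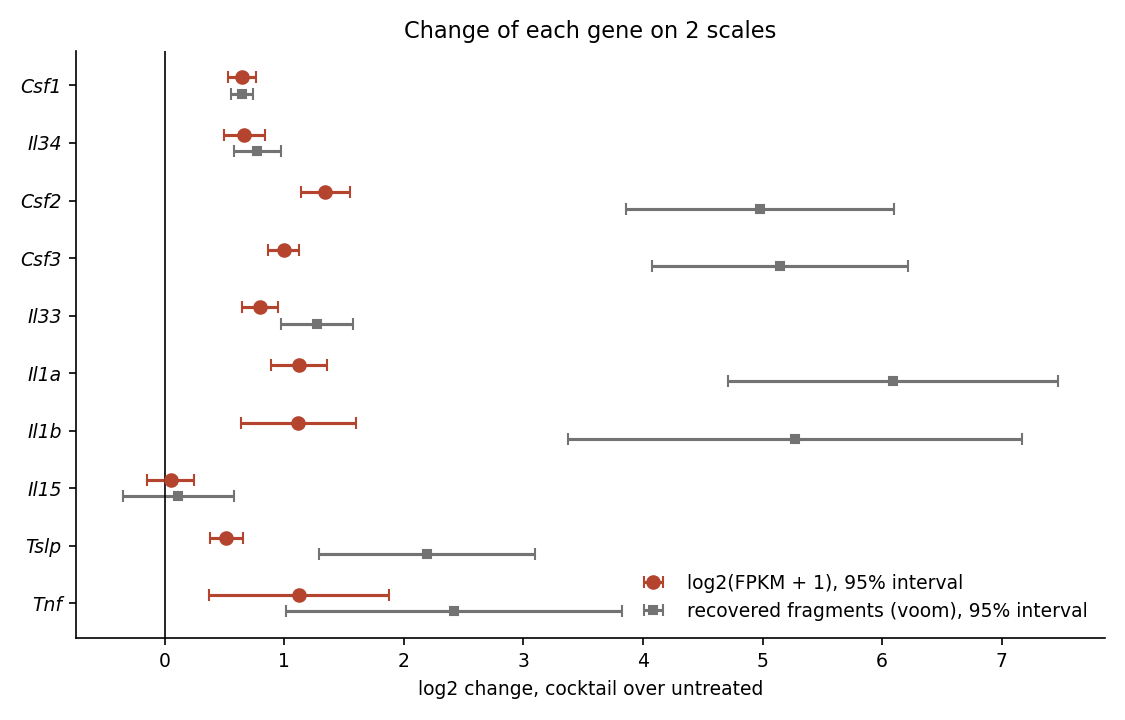
Log2 change of each gene, cocktail over untreated, on log2(FPKM + 1) (circles) and from recovered fragments by voom (squares), both with 95% intervals. The circles of Csf1, Il34, Il33 and Csf2 are from the filtered fit, which Csf2 entered only through its cocktail libraries. Csf2, Csf3, Il1a and Il1b lie between 4.98 and 6.09 in recovered fragments against 0.99 to 1.34 on log2(FPKM + 1), while Csf1 is at 0.65 and 0.64.

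Short-lived cytokine transcripts often carry AU-rich elements in the 3' UTR, built from the pentamer ATTTA, to which proteins of the ZFP36 family bind. In GENCODE transcripts all 10 genes held more ATTTA per kilobase of 3' UTR than the median gene, which had 1.23 among 20968 protein-coding genes. Csf2 had 28.4 per kilobase, Tnf 10.5, Csf3 8.97 and Il1b 8.72, each above at least 98.3% of genes. Il15, which was not called, had 3.55, more than Csf1 with 1.90, Il33 with 1.79 and Il34 with 1.65. The longer element TTATTTATT was present 4 times in Csf2 and 5 times in Tnf, and in none of the other 8 genes, against 7.6% of all genes with at least 1. Short 3' UTRs give coarse values, and that of Il15 has 1 pentamer in 282 nt. The densest 30 bases of the 4 genes with the most pentamers per kilobase are shown, with ATTTA in capitals.
Csf2: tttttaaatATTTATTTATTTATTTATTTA
Tnf: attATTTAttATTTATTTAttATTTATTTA
Csf3: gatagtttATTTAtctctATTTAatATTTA
Il1b: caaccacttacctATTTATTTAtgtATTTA

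Il33 encodes an alarmin that is held in the nucleus and released from damaged cells, known in the central nervous system from glia. It had 2.45, 2.28, 2.55 and 3.07 FPKM in cocktail libraries, against 0.994, 1.13, 1.10 and 1.03 FPKM in untreated libraries. The untreated libraries were close together, and even the lowest cocktail library was above them. The fold was 2.43, and Il33 changed by 0.79 ± 0.069 in log2 (SE; limma, adjusted p = 7.4e-07). The gene of its own receptor chain, Il1rl1, was at 0.108 FPKM in both groups (limma without a filter, log2 change 0.00, adjusted p = 1).

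Il1a had 1.03, 0.828, 1.43 and 1.63 FPKM in cocktail libraries. Untreated libraries had 0.0121, 0, 0.0234 and 0.0228 FPKM, which is 5 fragments in all against 422 in cocktail libraries. The groups were wide apart, and cocktail libraries 3 and 4 were the highest. Il1a changed by 1.12 ± 0.102 in log2 (SE; limma, adjusted p = 1.4e-05). The fragment ratio was 83.5 with an interval of 35.5 to 258 for counting error only. This ratio is the highest estimate of the 10 genes, and its interval overlaps those of Csf2, Csf3 and Il1b.

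Il1b, the neighbour of Il1a on chromosome 2 at a distance of 54382 bases, had 0.733, 0.587, 1.81 and 2.22 FPKM in cocktail libraries. Untreated libraries had 0.0584, 0.0394, 0.0188 and 0 FPKM. Every cocktail library was above the untreated ones, with libraries 3 and 4 well above 1 and 2. Il1b changed by 1.12 ± 0.21 in log2 (SE; limma, adjusted p = 0.0016), and 47.1-fold in summed fragments, with an interval of 21.4 to 130. That interval covers counting error only, while the cocktail libraries differed by up to 3.78-fold in FPKM. Without cocktail libraries 3 and 4 the log2 change of Il1b was 0.69 (limma, adjusted p = 1.5e-05). The libraries left out are those highest in these same values, and libraries 1 and 2 lay close together, so that p-value adds no weight. In FPKM Il1b stood at 0.712 and 0.708 of Il1a in cocktail libraries 1 and 2, and at 1.26 and 1.36 of it in libraries 3 and 4.

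Tnf had 0.662, 1.00, 3.60 and 3.61 FPKM in cocktail libraries, against 0.561, 0.252, 0.331 and 0.205 FPKM in untreated libraries. The lowest cocktail library lay just above the highest untreated one, and libraries 3 and 4 stood clearly apart from 1 and 2. Tnf changed by 1.12 ± 0.331 in log2 (SE; limma, adjusted p = 0.018), with a fold of mean FPKM of 6.57. Without cocktail libraries 3 and 4 the log2 change was 0.46 (limma, adjusted p = 0.016), and without libraries 1 and 2 it was 1.79 (limma, adjusted p = 9.8e-06). These same values set the pairs of libraries apart, so the p-values of these fits add no weight. With a single library left out the adjusted p of Tnf lay between 0.0036 and 0.058, depending also on whether genes at 0 in all remaining libraries were kept. Left out singly with such genes kept, cocktail libraries 3 and 4 and untreated libraries 2, 3 and 4 each ended the call (adjusted p = 0.056, 0.055, 0.054, 0.052 and 0.058).

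The summed microglial markers were likewise at 23.1 and 25.3 FPKM in cocktail libraries 1 and 2 and at 56.2 and 77.0 FPKM in libraries 3 and 4. Microglia are a known source of TNF and IL-1, and the part of this difference in the values of Tnf, Il1b and Il1a was not tested. Of the 17 markers 3 lay above all untreated libraries in cocktail libraries 1 and 2 alike, a count that carries no weight, as said above. Cd68, among these 3, was at 5.95 and 5.56 FPKM in cocktail libraries 1 and 2, against 3.35 to 4.20 FPKM in untreated libraries. Fcer1g was at 3.25 and 3.46 FPKM in cocktail libraries 1 and 2, against 1.91 to 2.42 FPKM in untreated libraries. Cx3cr1, one of the other markers, was at 0.133 and 0.262 FPKM in cocktail libraries 1 and 2, against 0.232 to 0.504 FPKM in untreated libraries. Without libraries 3 and 4 the log2 change of Il1a was 0.93 (limma, adjusted p = 3.9e-06). Libraries 3 and 4 were the highest of Il1a too, so that p-value adds no weight.

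**Figure D3:**
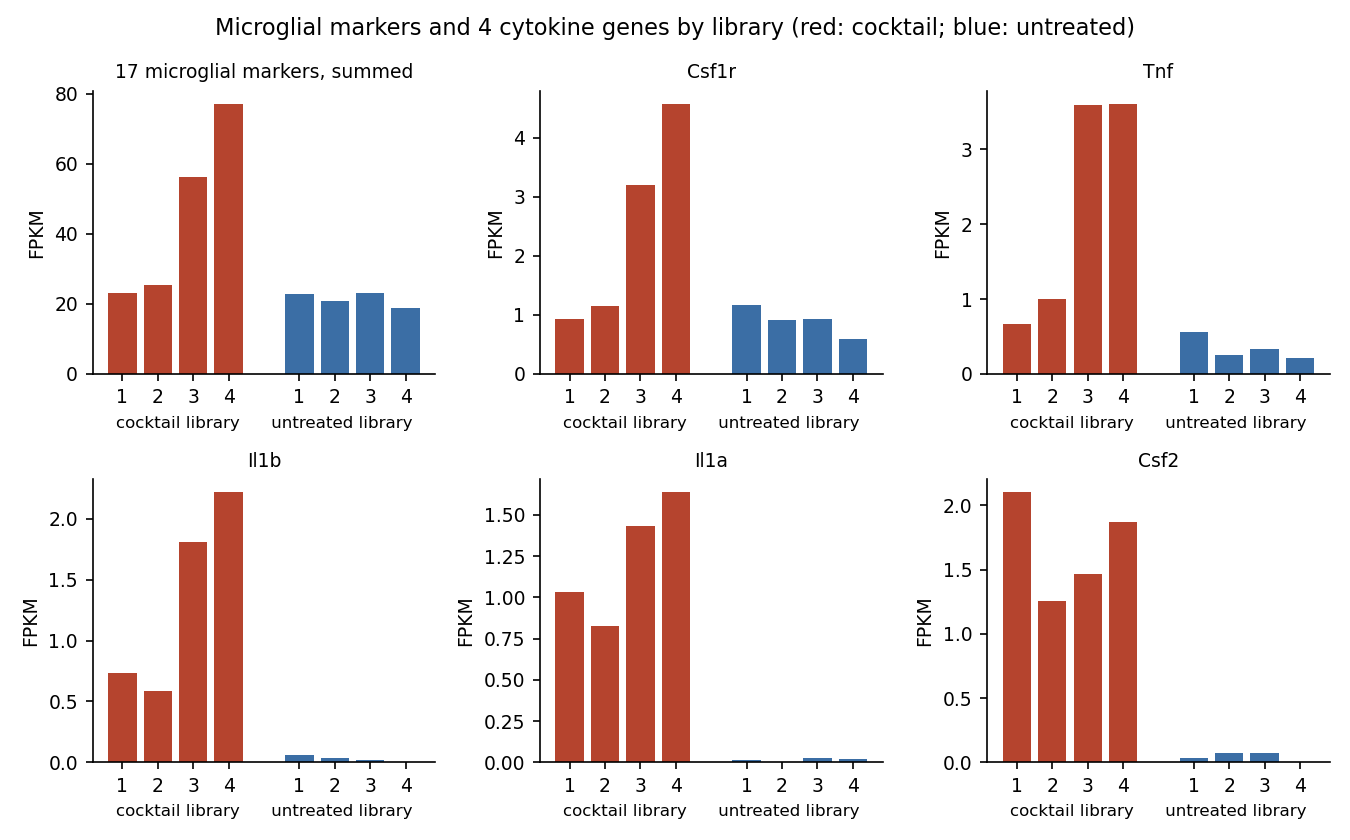
FPKM (vertical axes) of the summed microglial markers, Csf1r, Tnf, Il1b, Il1a and Csf2 in each cocktail library (red, left) and untreated library (blue, right). Cocktail libraries 3 and 4 are the highest for the markers, Csf1r, Tnf, Il1b and Il1a, and Csf2 has its highest value in cocktail library 1, at 2.10 FPKM.

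RefSeq promoter windows were given for 6 of the 10 genes, namely Csf1, Csf2, Il33, Il1a, Il1b and Tnf. Il1a, Il1b, Tnf and Il33 had the letters TATAAA, the core of a TATA box, on the sense strand with the first base 40 to 20 bases before a start. Over all 27025 genes with windows 2.41% did. For Il33 this holds for the second of its 2 starts. The starts used for Il1a and Il1b lie inside the spans of these genes, which on the minus strand begin at 129310186 and 129371164. The Il1a stretch below is therefore wholly within the gene's span, and the Il1b stretch partly. The Il33 stretch is also wholly within its gene's span, from 29925113 to 29960718. The motif TGANTCA, which AP-1 factors bind, was searched on both strands of the whole window. It was found in Il1a alone among the 6, 12 bases before the start, and in 8.97% of all genes. The 100 bases before each start are shown with TATAAA in capitals, at chr2:129309973-129310072 on the minus strand for Il1a, chr2:129371140-129371239 on the minus strand for Il1b, chr17:35202008-35202107 on the minus strand for Tnf and chr19:29945690-29945789 on the plus strand for Il33.
Il1a: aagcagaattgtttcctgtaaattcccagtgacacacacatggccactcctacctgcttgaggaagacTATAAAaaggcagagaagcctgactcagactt
Il1b: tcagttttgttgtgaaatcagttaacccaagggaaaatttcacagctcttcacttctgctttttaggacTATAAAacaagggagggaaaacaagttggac
Tnf: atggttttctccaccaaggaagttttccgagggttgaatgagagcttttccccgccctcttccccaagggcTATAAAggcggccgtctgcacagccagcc
Il33: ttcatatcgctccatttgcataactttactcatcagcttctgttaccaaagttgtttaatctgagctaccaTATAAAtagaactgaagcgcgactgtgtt

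Tslp encodes thymic stromal lymphopoietin, an epithelial and stromal cytokine that activates dendritic cells. It had 0.703, 0.502, 0.473 and 0.739 FPKM in cocktail libraries and 0.0455, 0.138, 0.176 and 0.128 FPKM in untreated libraries. The groups were separate, on 55 and 11 fragments in all. The log2 change of Tslp was 0.51 ± 0.062 (SE; limma, adjusted p = 8.8e-05) and the fragment ratio 4.94 with an interval of 2.56 to 10.5 for counting error only. Crlf2, which encodes the chain of its receptor that binds TSLP, stood at 5.84 ± 0.707 FPKM in cocktail and 5.41 ± 0.495 FPKM in untreated libraries (SD, n = 4; limma, adjusted p = 0.30). The other chain, Il7r, averaged 0.00758 FPKM in cocktail libraries and was at 0 in untreated libraries.

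Il15, a growth factor of natural killer and memory T cells, had 0.729, 0.676, 0.946 and 0.917 FPKM in cocktail libraries. Untreated libraries had 0.715, 0.598, 0.670 and 1.07 FPKM, so that the groups overlapped and the highest value of all was untreated. For Il15 the log2 change was 0.05, with a 95% interval of -0.15 to 0.24 (limma, adjusted p = 0.68). As a fragment ratio it was 1.07, with an interval of 0.851 to 1.34 for counting error only. Il15ra, the receptor chain that presents IL-15 to other cells, stood at 2.30 ± 0.175 FPKM in cocktail and 2.33 ± 0.196 FPKM in untreated libraries (SD, n = 4; limma, adjusted p = 0.83).

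Among 19 genes of receptors and binding partners 10 passed the filter, of which 5 were called higher and 2 lower, against 26.6% higher and 41.1% lower of all 11845 genes. The median log2 change of these 10 was 0.09, against -0.05 over all genes. Without untreated library 3 or 4 the count of rises was 3. Without the filter 10 of the 19 were called higher and 2 lower, or 52.6% and 10.5%, against 20.3% and 32.9% of all genes. Both chains of the signalling IL-1 receptor rose. Il1r1 had 8.24 ± 1.03 FPKM in cocktail and 3.58 ± 0.297 FPKM in untreated libraries, and Il1rap had 12.4 ± 0.302 FPKM in cocktail and 5.71 ± 0.225 FPKM in untreated libraries (SD, n = 4; limma, adjusted p = 2.3e-07 and 5.3e-10). Tnfrsf1b, which encodes TNFR2, rose to 10.6 ± 2.20 FPKM in cocktail libraries, against 2.68 ± 0.209 FPKM in untreated libraries (SD, n = 4; limma, adjusted p = 7.9e-08). Tnfrsf1a, the gene of TNFR1, had 91.8 ± 2.37 FPKM in cocktail and 86.5 ± 2.13 FPKM in untreated libraries (SD, n = 4; limma, adjusted p = 0.021). That call was lost without cocktail library 1 or 2 or untreated library 3 or 4 (adjusted p = 0.057, 0.056, 0.059 and 0.053), and without cocktail libraries 1 and 2 together (adjusted p = 0.17).

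Genes for the brakes on IL-1 were low in untreated cells. Il1rn, the receptor antagonist, had 0.389, 0.551 and 0.987 FPKM in cocktail libraries 1 to 3 and more in library 4, for a mean of 0.858 FPKM, against 0.0366, 0.0185, 0.0530 and 0.0860 FPKM in untreated libraries (limma without a filter, log2 change 0.79, adjusted p = 0.0024). Its cocktail libraries 3 and 4 were again the highest. Il1r2, the decoy receptor, averaged 0.219 FPKM in cocktail and 0.0256 FPKM in untreated libraries (limma without a filter, log2 change 0.25, adjusted p = 0.0049). The shared chain for GM-CSF, Csf2rb, was at 0.416 ± 0.138 FPKM in cocktail and 0.0690 ± 0.0189 FPKM in untreated libraries (SD, n = 4; limma without a filter, adjusted p = 0.00046), and Csf2ra, its partner, at means of 1.47 FPKM in cocktail and 1.35 FPKM in untreated libraries (limma, adjusted p = 0.37). Csf3r, the receptor of CSF3, was at 0.102 ± 0.0326 FPKM in cocktail and 0.0314 ± 0.0210 FPKM in untreated libraries (SD, n = 4; limma without a filter, adjusted p = 0.010). Its call ended without cocktail libraries 3 and 4 (adjusted p = 0.09).

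Of 11 genes for maturation and release, 7 rose and 3 fell without the filter, or 63.6% and 27.3%, against 20.3% and 32.9% of all genes. Their median log2 change was 0.45, against -0.02 over all genes. The filtered fit held 10 of the 11, with the same counts, but Nlrp3 and Gsdmd passed only through their cocktail libraries. Nlrp3, the sensor of the inflammasome that activates caspase-1, rose to 2.21 ± 0.336 FPKM in cocktail libraries, against 0.0456 ± 0.0171 FPKM in untreated libraries (SD, n = 4; limma without a filter, adjusted p = 9.2e-08). Casp1, which cleaves pro-IL-1β, rose to 33.4 ± 1.67 FPKM in cocktail libraries, against 15.2 ± 0.176 FPKM in untreated libraries (SD, n = 4; limma, adjusted p = 1.4e-10). Gsdmd, whose product forms the pore through which IL-1β leaves cells, rose to 3.40 ± 0.372 FPKM in cocktail libraries, against 0.614 ± 0.139 FPKM in untreated libraries (SD, n = 4; limma without a filter, adjusted p = 5.7e-07). Pycard, the adaptor between NLRP3 and caspase-1, was below the filter at 0.449 FPKM in cocktail and 0.365 FPKM in untreated libraries (limma without a filter, adjusted p = 0.23). Adam17, which sheds TNF from the membrane, and its partner Rhbdf2 rose 1.38- and 1.98-fold (limma, adjusted p = 3.9e-07 and 3.3e-08). Rhbdf1, the gene of the other such partner, fell to 18.7 ± 0.863 FPKM in cocktail libraries, against 21.8 ± 1.62 FPKM in untreated libraries (SD, n = 4; limma, adjusted p = 0.0036). Calpains cleave pro-IL-1α, and Capn1 and Capn2 fell to 9.98 and 55.3 FPKM in cocktail libraries, against 12.6 and 91.2 FPKM in untreated libraries (limma, adjusted p = 0.00076 and 2.9e-10).

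Of 12 genes for proteins that bind cytokine mRNA 4 rose and 4 fell, shares near the 26.6% and 41.1% of all genes, and the median log2 change was -0.01 against -0.05. After median-ratio rescaling 2 fell, and without cocktail libraries 3 and 4 the count of rises was 2. Zc3h12a, an endonuclease that degrades interleukin transcripts, rose to 43.0 ± 1.48 FPKM in cocktail libraries, against 13.2 ± 0.832 FPKM in untreated libraries (SD, n = 4; limma, adjusted p = 2.0e-11). Within the ZFP36 family, whose proteins bind the AU-rich stretches shown above, Zfp36l1 rose to 144 FPKM in cocktail libraries, against 70.8 FPKM in untreated libraries, while Zfp36 and Zfp36l2 fell by 0.27 and 0.60 on the log2 scale (limma, adjusted p = 6.3e-10, 0.00031 and 1.1e-08). All 3 kept their direction under median-ratio rescaling.

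Of 38 further interleukin gene names 34 are in the table and 22 were above 0 in some library, of which 5 passed the filter. Of the 22, 7 were called higher and 2 lower without the filter, or 31.8% and 9.09%, against 20.3% and 32.9% of all genes. Il6 and Il19 passed the filter only through their cocktail libraries. Il6 and Il19 rose to 10.9 ± 2.68 and 5.69 ± 0.914 FPKM in cocktail libraries, against 0.422 ± 0.0961 and 0.0993 ± 0.0804 FPKM in untreated libraries (SD, n = 4; limma without a filter, adjusted p = 1.4e-07 and 3.4e-08). Il17d and Il7 fell to 1.55 and 1.19 FPKM in cocktail libraries, against 3.85 and 1.70 FPKM in untreated libraries (limma, adjusted p = 1.2e-05 and 0.0010). Il18, an IL-1 family cytokine that caspase-1 also cleaves, had 6.63 ± 0.365 FPKM in cocktail and 6.15 ± 0.512 FPKM in untreated libraries (SD, n = 4; limma, adjusted p = 0.16). It was called with libraries rescaled by median ratios, and also without untreated library 1 (adjusted p = 0.031 and 0.038).

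**Figure D4:**
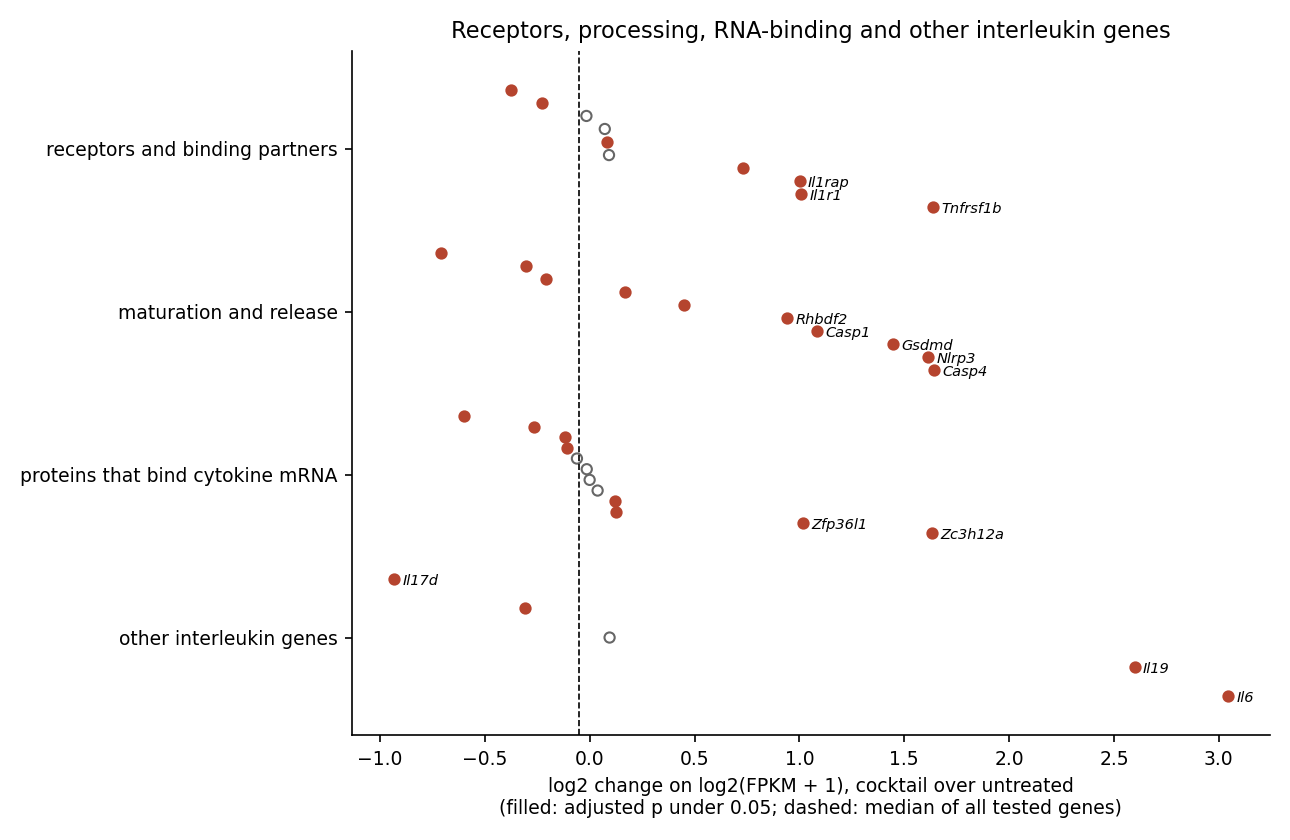
Log2 change on log2(FPKM + 1) of each tested gene in the 4 lists, cocktail over untreated, with 1 point per gene. Filled points passed an adjusted p under 0.05, the dashed line is the median of all tested genes at -0.05, and Il6 lies farthest right at 3.04. Il6, Il19, Nlrp3 and Gsdmd entered this fit only through their cocktail libraries.

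The profiles most like those of the 4 filtered genes were sought among all tested genes, by the root mean square difference over the 8 libraries in log2(FPKM + 1) minus each gene's own mean. For Csf1 the nearest were Dok4, Kank4 and Ly75, at 0.042, 0.046 and 0.047. Nr1h4, Capn5 and Pcdhgc4 were nearest to Il34, at 0.042, 0.052 and 0.072. Antxr1, Phyhd1 and Itpripl2 came closest to Il33, at 0.041, 0.048 and 0.052, and Gpam, Galnt14 and Lamc3 to Csf2, at 0.089, 0.089 and 0.102. None of these 12 genes is among the 10 or in their 4 lists. The measure weighs mainly the size of the step between the groups on this scale. Gpam, at 59.5 FPKM in cocktail and 22.8 FPKM in untreated libraries, is therefore as near to Csf2 as Galnt14, at 1.78 FPKM in cocktail and 0.108 FPKM in untreated libraries.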

How the data were processed

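The authors deposited FPKM values for 21878 genes in 8 libraries. The submitters' processing notes give the build mm10, and the aligner and counter are not stated in the sources used here. A stranded kit was used for library preparation, per the labels' protocols. Groups came from the sample titles. Within a gene the FPKM stood in ratios of whole numbers (relative tolerance 1e-11). Library totals were derived from the ratios between libraries, as the smallest whole numbers that gave them. With these totals, whole fragments were derived for each of the 16557 genes detected in 2 or more libraries, taking the smallest whole numbers that also gave a whole gene length. Tested on simulated data, 99.79% of 16387 genes came back exactly. limma (version 3.58.1, R 4.3.3) with a mean-variance trend was fitted to log2(FPKM + 1), two-sided, with Benjamini-Hochberg adjustment over all genes of a fit. The filtered fit held 11845 genes, and the fit without a filter the 17258 genes above 0. Voom on recovered fragments was an alternative. Genes and lists were chosen with earlier results of these data known. Named list genes bind, mature or regulate one of the 10, with up to 4 others by largest called change. Sequences are from RefSeq (GRCm38.p6) and GENCODE M21, and mm10 names the same assembly.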

Additional observations from a re-analysis of the deposited data

How the results depend on the processing

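The 9 genes called higher stayed higher and under the threshold in 151 of 151 values under other pseudocounts, filters, scaling, tests and sets of libraries, with a largest adjusted p of 0.045, for Tnf. The 151 include fits without cocktail libraries 1 and 2 together, or 3 and 4 together. These same data set those pairs apart, so the p-values of these fits add no weight. The values of Csf2 among the 151, except that without the filter, come from the filtered fit. It entered that fit only through its cocktail libraries, so these values of Csf2 carry no weight. Il15 passed in 0 of 16, at adjusted p = 0.13 to 0.99. The count of rises in the filtered fit, with Csf2 included, was 4 under each of these settings except without the filter, where it was 9. With a filter on mean FPKM the 4 included Tnf in place of Csf2, which has no value there. Tnf passed that filter only through its cocktail libraries, at means of 2.22 FPKM in cocktail and 0.337 FPKM in untreated libraries. The count of 4 under that filter therefore carries no weight either. In an alternative chosen after seeing the data, genes at 0 in all remaining libraries were kept when a library was left out, and Tnf then had log2 changes of 0.90 to 1.39, of which 5 missed the threshold, at 0.90, 0.90, 1.09, 1.12 and 1.08. Rises of receptor genes numbered 10 without the filter and 3 to 5 with a library left out. RNA-binding genes had 2 falls after median-ratio rescaling, and 2 rises without cocktail libraries 3 and 4. Rises of other interleukin genes numbered 7 without the filter. The cause was not tested.

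Over all genes, 39.3% of calls were rises, and 49.9% after median-ratio rescaling. Deviations of equally numbered libraries correlated at -0.04, 0.08, 0.09 and -0.01, so the numbers were not taken as pairs. With the replicate block Tnf had an adjusted p of 0.033, and no call among the 10 genes changed. Untreated levels of Csf2, Csf3, Il1a and Il1b rest on 5 or 6 fragments, which limits their folds.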

Other observations

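Further interleukin genes below the filter also rose, and they are named here after their values were seen. Il11, Il12b and Il1f9 changed least, by 0.33, 0.07 and 0.06 in log2 (limma without a filter, adjusted p = 0.0029, 0.022 and 0.0076). The call of Il12b ended without cocktail library 3 or 4 (limma, adjusted p = 0.063 for each). Il21 and Il1f6 had the larger changes. Il21, a T-cell cytokine, had 0.893, 1.09, 0.951 and 0.837 FPKM in cocktail libraries, against 0.0649, 0.0984, 0.0157 and 0.0457 FPKM in untreated libraries (limma without a filter, log2 change 0.88, adjusted p = 2.3e-07). Il1f6, which encodes IL-36α of the IL-1 family, had 1.13, 0.938, 0.994 and 0.670 FPKM in cocktail libraries and 0, 0, 0 and 0.0549 FPKM in untreated libraries (limma without a filter, log2 change 0.93, adjusted p = 2.7e-06). Their highest values were in cocktail library 2 for Il21 and cocktail library 1 for Il1f6.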
